A study of Mus musculus with 3 samples.

Results

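The chemosensory genes of tuft cells were followed as a set of 8 named genes, Pou2f3, Trpm5, Avil, Dclk1, Gng13, Alox5ap, Il25 and Sh2d6, among the 32285 mouse genes counted. They were chosen by name, and their unique molecular identifiers (UMIs, counts of single captured RNA molecules) were read in epithelial cells, taken as the cells with at least 1 UMI of the epithelial surface gene Epcam. This gave 2543 Epcam cells of 8392 cells in all. The cells came from 1 mixed 10x lane of wild-type cultures at day 13, with 2 cultures pooled under each of 2 hashtag antibodies. No treatment was compared. Per the paper, the medium of both kinds of culture held the growth factor FGF7 and, at the start, thiazovivin. The organoid reaggregate fetal thymic organ culture (ORFTOC) joined thymic epithelial cells grown as organoids with EpCAM-depleted fetal thymus cells and mouse embryonic fibroblasts (MEFs), and the fetal thymic organ culture (FTOC) was an intact fetal lobe kept in the same medium. By the paper's methods the organoids came from older embryos than the FTOC lobes and were cultured before reaggregation. The donor age of the epithelium thus differed between the 2 kinds of culture. The 2 pools held 1416 ORFTOC and 1127 FTOC Epcam cells. Because the cultures of a pool shared a hashtag, each pool was 1 sample. No test between the pools was possible, and every interval given covers 95% of the counting error only, taking UMIs as independent although those of 1 cell are not.

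Tuft cells are rare epithelial cells of mucosal surfaces and of the thymic medulla that sense chemicals with the signalling chain of taste cells. Receptor and G protein act through phospholipase C and calcium release on the cation channel TRPM5, and the cells answer with interleukin 25, leukotrienes and acetylcholine, which act on nearby immune cells. The transcription factor POU2F3 is required for tuft cells to form. Among the 8 genes Pou2f3 is thus the regulator, Gng13 (a G protein gamma subunit that pairs with gustducin) and Trpm5 belong to the transduction chain, Avil (advillin, an actin-binding protein), Dclk1 (a microtubule-associated kinase) and Sh2d6 (an SH2 domain adaptor) are structural or signalling markers, and Alox5ap (the 5-lipoxygenase activating protein) and Il25 make the output.

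The genes lie apart in the genome. In the RefSeq annotation of GRCm38.p6, Dclk1 is at chr3:55242303-55539068, Alox5ap at chr5:149265004-149288153, Sh2d6 at chr6:72513641-72534206 and Trpm5 at chr7:143071529-143094642. Pou2f3 is at chr9:43123927-43205755, Avil at chr10:127000065-127020994, Il25 at chr14:54932695-54935837 and Gng13 at chr17:25717172-25719102. RefSeq promoter windows (250 bases before to 50 bases after an annotated start) matched 5 of the 8 genes, with 7 windows for Trpm5, Avil, Dclk1, Gng13 and Sh2d6. Since POU factors bind the octamer ATGCAAAT, both strands of each window were searched for it and for the same letters without the last base, ATGCAAA. The octamer was in 1.74% of all 32851 windows and in none of the 7. The shorter form, which every octamer contains, was in 4.63% of all windows and in 1 of the 7, that of Avil, at 115 and 15 bases before the start. The gene 1810046K07Rik, which encodes a coactivator of POU2F3 and was detected in nearly every cell described below, had the octamer in 1 of its 2 windows, at 86 and 55 bases before the start. The windows are shown for Avil (chr10:127000459-127000758, plus strand), for 1810046K07Rik (chr9:51328869-51329168, minus strand) and, as 2 transduction genes without a match, for Trpm5 (chr7:143094593-143094892, minus strand) and Gng13 (chr17:25716922-25717221, plus strand), each 5′ to 3′ with the matched letters in capitals. A match describes the letters only.
Avil: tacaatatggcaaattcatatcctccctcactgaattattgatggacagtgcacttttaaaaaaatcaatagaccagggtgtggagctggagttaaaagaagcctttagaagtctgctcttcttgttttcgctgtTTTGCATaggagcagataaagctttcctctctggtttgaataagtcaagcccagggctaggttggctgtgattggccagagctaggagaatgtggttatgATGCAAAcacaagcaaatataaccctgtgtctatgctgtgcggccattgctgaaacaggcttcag
1810046K07Rik: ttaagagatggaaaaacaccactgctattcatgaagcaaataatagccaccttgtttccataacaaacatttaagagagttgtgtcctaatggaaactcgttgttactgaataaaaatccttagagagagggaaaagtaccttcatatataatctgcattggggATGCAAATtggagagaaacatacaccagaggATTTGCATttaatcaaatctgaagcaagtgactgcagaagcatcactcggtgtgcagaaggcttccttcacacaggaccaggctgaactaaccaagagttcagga
Trpm5: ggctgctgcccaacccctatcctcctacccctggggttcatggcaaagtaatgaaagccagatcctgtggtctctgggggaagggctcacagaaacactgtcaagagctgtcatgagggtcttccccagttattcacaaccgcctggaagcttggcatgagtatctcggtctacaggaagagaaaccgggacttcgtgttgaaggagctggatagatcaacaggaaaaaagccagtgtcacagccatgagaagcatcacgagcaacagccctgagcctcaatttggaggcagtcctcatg
Gng13: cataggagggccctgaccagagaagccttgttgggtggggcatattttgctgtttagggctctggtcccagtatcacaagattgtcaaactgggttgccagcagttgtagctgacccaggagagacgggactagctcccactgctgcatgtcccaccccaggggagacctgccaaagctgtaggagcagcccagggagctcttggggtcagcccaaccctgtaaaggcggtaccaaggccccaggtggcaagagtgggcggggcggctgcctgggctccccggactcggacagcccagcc

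The Epcam cells were the deepest large set in the lane apart from the mesenchymal cells, with a median of 12936.5 UMIs per cell in ORFTOC and 11556 in FTOC. Immune cells (no Epcam UMI, at least 1 Ptprc UMI, 4472 cells) had a median of 5044, the T cells among them (also Cd3e, 3478 cells) 5144, and mesenchymal cells (no Epcam or Ptprc UMI, at least 1 Pdgfra UMI, 259 cells) 19151. Exactly 1 Epcam UMI was found in 285 cells, of which 189 also held Ptprc, so the set is not free of other cells. Y-linked UMIs without Xist were found in 41.3% of the ORFTOC Epcam cells with fewer than 3 of the genes. Of such FTOC cells, 1 of 1118 held them. The sex of the cells thus also differed between the pools. Culture type, embryo and donor age of the epithelium cannot be told apart.

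The regulator Pou2f3 was sparse. It gave 74 UMIs in 31 ORFTOC cells and 48 UMIs in 35 FTOC cells, or 3.85 (3.02 to 4.83) and 3.48 (2.56 to 4.61) counts per 1000000 UMIs of all Epcam cells of the pool (CPM), so the pools overlapped. No UMI was found in 4472 immune cells, which allows up to 0.0671% of cells with a UMI and sets no limit on cells that express so sparse a gene below detection, and 4 were found in mesenchymal cells. Barcodes with fewer than 100 UMIs, taken as free RNA, held 0.873 CPM.

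Of the transduction genes, Gng13 was the most abundant. It gave 2440 UMIs in 134 ORFTOC cells (127 CPM, 122 to 132) and 550 UMIs in 78 FTOC cells (39.9 CPM, 36.6 to 43.3), against 17.0 CPM in free RNA. Most of those cells held little, with a median of 1 UMI among cells with any and a highest value of 263. T cells, which should lack it, had a UMI in 0.115% of cells, against 9.46% and 6.92% of Epcam cells, and with each cell thinned to 5000 UMIs the 3 shares were 0.113%, 5.50% and 3.76%. Trpm5, the channel at the end of the chain, was in fewer cells, with 191 UMIs in 21 ORFTOC cells and 52 UMIs in 9 FTOC cells. Its level was 9.94 (8.58 to 11.5) and 3.77 (2.81 to 4.94) CPM, and it was near 0 elsewhere, with 1 UMI in all immune cells and none in mesenchymal cells.

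Among the markers, Avil gave 497 UMIs in 33 ORFTOC cells and 85 UMIs in 11 FTOC cells, or 25.9 (23.6 to 28.2) and 6.16 (4.92 to 7.62) CPM. Sh2d6 gave 122 UMIs in 14 ORFTOC cells and 23 UMIs in 4 FTOC cells, or 6.35 (5.27 to 7.58) and 1.67 (1.06 to 2.50) CPM. In immune cells they were at 0.391 and 0.0979 CPM and in mesenchymal cells at 1.29 and 0.554 CPM. Dclk1, often used as a tuft cell marker in the gut, was not particular to epithelial cells. It was detected in 341 ORFTOC cells (24.1%, 21.9% to 26.4%) and 110 FTOC cells (9.76%, 8.09% to 11.6%), more than any other of the 8 genes, and in 243 of 259 mesenchymal cells (93.8%, 90.2% to 96.4%). The mesenchymal level, 354 CPM (338 to 370), was above that of Epcam cells of either pool, 65.4 (61.8 to 69.1) in ORFTOC and 27.9 (25.2 to 30.8) in FTOC. T cells had a Dclk1 UMI in 0.633% of cells (0.564% thinned to 5000 UMIs).

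The output genes differed in where else they were found. Alox5ap, which hands arachidonic acid to 5-lipoxygenase, gave 422 UMIs in 27 ORFTOC cells and 70 UMIs in 7 FTOC cells, or 22.0 (19.9 to 24.2) and 5.07 (3.95 to 6.41) CPM. Free RNA held 6.33 CPM (4.24 to 9.09), at the level of the FTOC Epcam cells, and T cells had a UMI in 2.01% of cells (1.69% thinned), against 1.91% of ORFTOC and 0.621% of FTOC Epcam cells (1.55% and 0.407% thinned), so the shares did not stand above those of T cells in either pool, while the ORFTOC level lay above that of free RNA. Immune cells as a whole were at 16.1 (14.7 to 17.6), between the Epcam cells of the 2 pools, and 84.8% of their 493 UMIs lay in the 424 immune cells with at least 3 UMIs of the myeloid markers Lyz2, Cd68, C1qa and Tyrobp. Il25, the cytokine that activates innate lymphoid cells, was the rarest gene, with 26 UMIs in 11 ORFTOC cells and 5 UMIs in 4 FTOC cells. No Il25 UMI was found in immune cells, which allows up to 0.0671% of cells with a UMI, or in mesenchymal cells, which allows up to 1.16%. Over both pools, 6 of the 8 genes were higher in Epcam cells than in immune and mesenchymal cells, the exceptions being Dclk1 and Alox5ap. The share of all genes with this pattern was not computed, so the count describes the 8 genes only.

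**Figure D1:**
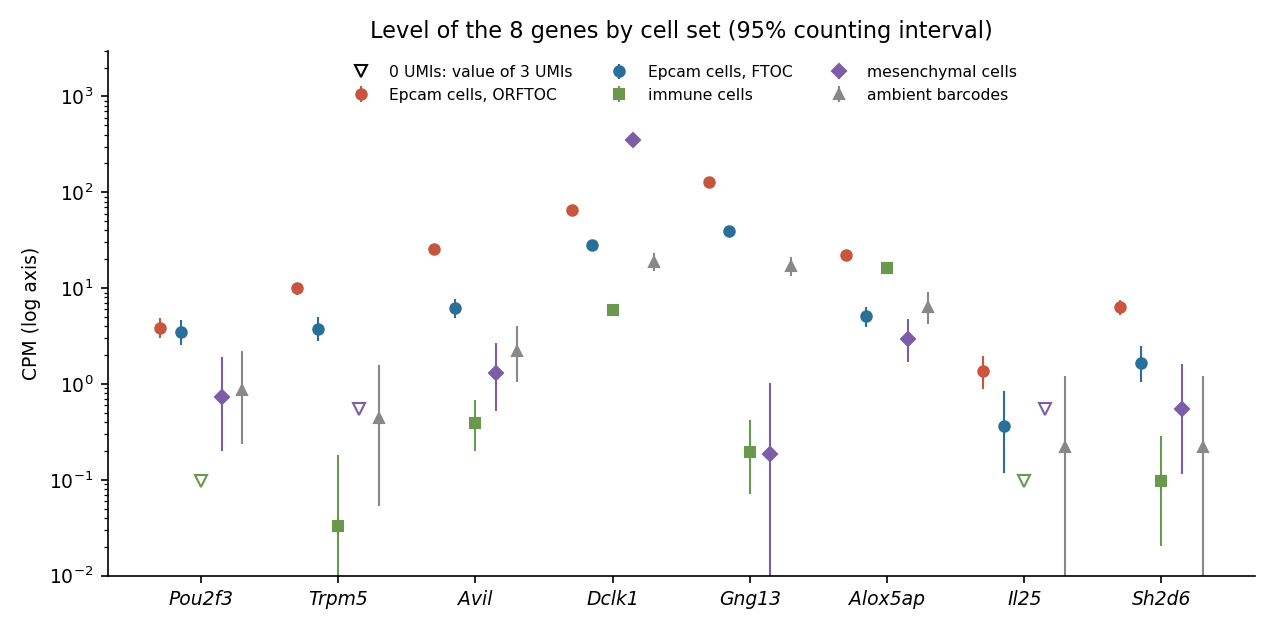
CPM (log axis) of each of the 8 genes in ORFTOC and FTOC Epcam cells, immune cells, mesenchymal cells and barcodes with fewer than 100 UMIs, with 95% counting intervals and sets without a UMI drawn at the value of 3 UMIs. Dclk1 is highest in mesenchymal cells (354 CPM), Alox5ap in immune cells (16.1) lies between the 2 Epcam pools, and the other genes lie highest in ORFTOC Epcam cells.

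Co-detection showed which of these UMIs fell in the same cells. Most Epcam cells held none of the 8 genes (1880 cells), 555 held 1, 77 held 2 and 31 held at least 3. For each of the 28 pairs the share of cells with the second gene was compared between cells with and without the first. It was at least 2 times higher in 27 pairs, and for 25 pairs the 2 intervals did not meet. Pairs of other genes were not compared, so these counts have no background share beside them. Of the 30 Trpm5 cells, 28 held Gng13 (93.3%, 77.9% to 99.2%), against 7.32% of cells without Trpm5, and 27 held Avil (90.0%, 73.5% to 97.9%), against 0.676%. Sh2d6 and Trpm5 were the pair with the highest ratio of shares, 293, with Sh2d6 in 14 of 30 Trpm5 cells and in 0.159% of the others. Pou2f3 was in 19 of the 30 Trpm5 cells but Trpm5 was in only 19 of the 66 Pou2f3 cells.

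Il25 was detected in 15 cells, of which 12 held Gng13, 11 Avil, 11 Pou2f3 and 10 Trpm5. The one pair without a higher share was Pou2f3 with Dclk1 (16.7% against 17.8%), and pairs with Dclk1 had the smallest ratios in general, 2.09 for Avil and 2.24 for Gng13. Cells with a member were deeper than those without it for each of the 8 genes (for Gng13 a median of 14836 against 12113 UMIs). With each cell thinned to 5000 UMIs (2275 cells were deep enough), 26 of 28 pairs had a share at least 2 times higher in one random draw and 25 in another, and in the first draw the exceptions were Pou2f3 with Dclk1 (1.28) and Dclk1 with Gng13 (1.87).

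**Figure D2:**
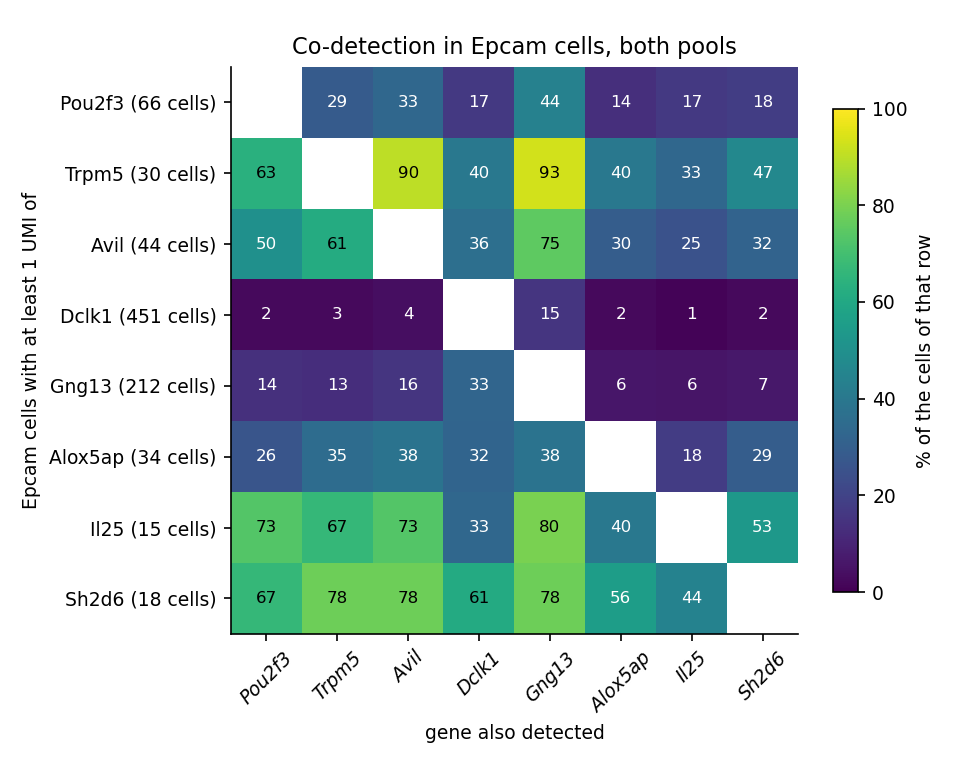
Percent of the Epcam cells with at least 1 UMI of the gene of a row that also held the gene of a column, both pools together. The rows of Trpm5, Il25 and Sh2d6 are high for Gng13 and Avil (93.3% and 90.0% for Trpm5). In the Dclk1 row, no single other gene was in more than 15.3% of the 451 cells.

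The 31 Epcam cells with at least 3 of the 8 genes, called tuft-like cells here, were 1.22% of Epcam cells (0.830% to 1.73%). Outside the Epcam cells, 1 of 4472 immune cells and 1 of 259 mesenchymal cells held as many. The cut lay in a sparse range, since 7 tuft-like cells held exactly 3 genes and 4 held all 8, and 57 of the 77 cells with exactly 2 held Dclk1 and Gng13. Their median depth was 15201 UMIs (3417 to 27666), and their Epcam UMIs ranged from 1 to 29 with a median of 18, with a single UMI in 1 cell. All 31 held Avil (1 to 43 UMIs, median 19) and Gng13 (1 to 263, median 80), 27 held Trpm5 (median 8 over the 31), 22 Pou2f3, 14 Sh2d6, 13 Alox5ap, 12 Dclk1 and 11 Il25. These values follow from the choice of cells and describe them.

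The share of each gene's epithelial UMIs that lay in these cells is likewise tied to the way they were chosen, and is given to show how the genes differed. The 31 cells held 98.8% of the Trpm5 UMIs of all Epcam cells, 97.2% of Sh2d6, 97.1% of Avil, 89.5% of Gng13 and 87.1% of Il25. The share was lower for Alox5ap (65.2%) and Pou2f3 (56.6%), and only 6.22% for Dclk1.

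**Figure D3:**
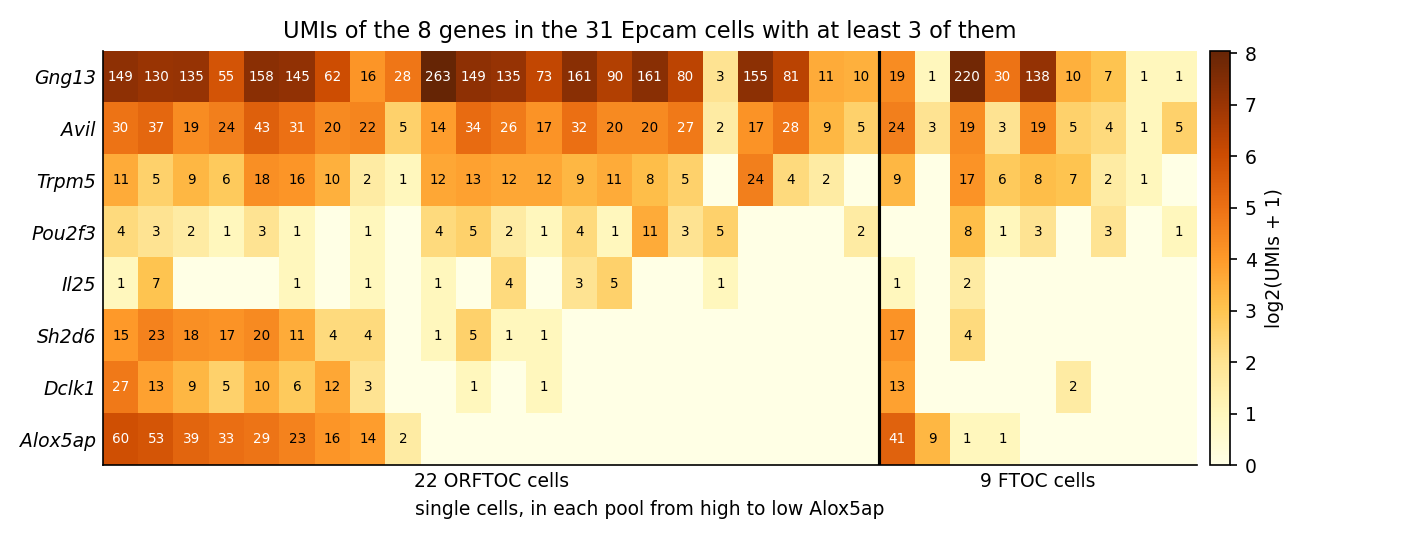
UMIs of the 8 genes in each of the 31 Epcam cells with at least 3 of them (22 ORFTOC, left; 9 FTOC, right), colored by log2(UMIs + 1), with squares without a number for 0. Gng13 and Avil are present in every cell, while Alox5ap, Dclk1 and most Sh2d6 UMIs sit in a block of 8 ORFTOC cells and 1 FTOC cell.

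The tuft-like cells were then compared with the 1880 Epcam cells that held none of the 8 genes, using genes that had no part in choosing them. Of 92 listed genes, 47 had at least 10 UMIs in the comparison cells alone, a limit chosen after seeing the data that takes nothing from the tuft-like cells. Of these 35 were at least 2 times higher in tuft-like cells, 3 at least 2 times lower and 9 in between. Among all genes past the same limit other than the 8, 15.7% were at least 2 times higher and 13.8% at least 2 times lower. The median log2 ratio was 3.96 for the listed genes and 0.28 for all genes, with a gene at 0 in one set counted as 3 UMIs. A further 16 listed genes reached 10 UMIs only with the tuft-like cells added and so could only come out higher, and their values below are a description. Of the genes named below, these are Tas1r3, Tas2r108, Tas2r118, 1810046K07Rik, Chat, Bmx and Rgs13. The other 29 stayed under 10 UMIs.

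Of the 9 taste-type transduction genes past that limit, 7 were at least 2 times higher and 2 lay in between. Gnat3, the gustducin alpha subunit, had 1412 UMIs in 26 of 31 tuft-like cells and 11 UMIs in 7 of 1880 other cells, or 2927 against 0.470 CPM. Gnb3, a beta subunit, was at 2222 against 2.61, the phospholipase Plcb2 at 452 against 0.898 and the calcium release channel Itpr3 at 170 against 8.17. Gnb1, a widely used beta subunit, differed little (325 against 216 CPM), as did Trpm4 (10.4 against 8.21).

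The Tas2r genes encode bitter taste receptors. Of 35 family members in the annotation, 21 were detected in tuft-like cells, with 287 UMIs in 22 of the 31 cells. The 2512 other Epcam cells held none, which allows up to 0.119% of cells with a UMI, and neither did the 3478 T cells. Single cells held several receptors, with at least 2 in 15 cells and up to 13 in 1 cell, and the best detected were Tas2r108 (16 cells, 45 UMIs) and Tas2r118 (9 cells, 65 UMIs). The umami and sweet receptor subunit genes Tas1r1 and Tas1r3 were found in 14 and 8 tuft-like cells. Receptors of this family are close in sequence, and reads shared between near-identical copies may be lost or misplaced in the counting.

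Of 9 regulators past the limit, 5 were at least 2 times higher and none at least 2 times lower. Not past the limit was 1810046K07Rik, the POU2F3 coactivator whose promoter is shown above. It was in 29 of 31 tuft-like cells (371 CPM) and in 2 of 1880 other cells (0.0855). The related gene Pou2af1, a coactivator in B cells, had no UMI in tuft-like cells, which allows up to 6.22 CPM, against 4.92 in the others. Ascl2 was at 108 against 1.88, Gfi1b at 20.7 against 1.03, and Spib, which is also used by other medullary epithelial cells, at 363 against 21.3. Sox4 (889 against 516) and Runx1 (151 against 78.4) were higher by less than 2 times.

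Of 9 lipid mediator and effector genes past the limit, 5 were at least 2 times higher and 2 at least 2 times lower. The leukotriene chain was present beyond Alox5ap, with Ltc4s (leukotriene C4 synthase) in all 31 cells at 862 against 2.99 CPM and Alox5 at 520 against 5.05. Chat, which makes acetylcholine and was not past the limit, was in 17 tuft-like cells and in 1 other cell. Of the prostaglandin enzymes, Ptgs1 (170 against 2.39) and Hpgds (116 against 4.28) were higher and Ptgs2 (2.07 against 7.78) and Ptges (10.4 against 21.6) lower, the last 2 on 1 and 5 UMIs and with intervals of the ratio that include equal levels. Il10 was in 18 tuft-like cells (82.9 against 0.513). The epithelial alarmin Il33 had no UMI in them (up to 6.22 allowed) and was at 8.94 in the others. With the 0 taken as 3 UMIs, the interval of the Il33 ratio (0.142 to 2.06) includes equal levels.

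Of 12 receptor and signalling genes past the limit, 10 were at least 2 times higher and 1 at least 2 times lower. Il17rb, the binding subunit of the IL-25 receptor, was in 18 of 31 tuft-like cells at 80.9 against 1.03 CPM. Its partner Il17ra, the lower gene, had no UMI in them (up to 6.22 allowed) against 14.1. With the 0 taken as 3 UMIs, the interval of its ratio (0.0904 to 1.30) includes equal levels. Kinases and adaptors better known from blood cells were high, namely Vav1 (365 against 8.64), Matk (595 against 1.33) and, not past the limit, Bmx (274 against 0.171). Rgs13, also not past the limit, had 112 UMIs in 21 tuft-like cells and none in the others, at least 1810-fold higher with the 0 taken as 3 UMIs. All 8 genes tied to cell shape, each past the limit, were at least 2 times higher, from the keratin gene Krt18 (2.02-fold, 1.95 to 2.09) to L1cam (166-fold, 90.1 to 326), with the bundling protein gene Espn at 1109 against 67.4.

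The 10 genes most like the 8 by the log2 ratio of CPM, with 10 added to both values, were Gnat3 (8.13), Gnb3 (7.47), Lrmp (7.14), Krt19 (6.07), Ltc4s (6.07), Fxyd6 (5.90), Ovol3 (5.90), Matk (5.74), Ly6g6f (5.61) and Plcb2 (5.41), measured over 31 and 1880 cells. Ly6g6f had 231 UMIs in 28 tuft-like cells, 1 UMI in the cells with none of the 8 genes and 0 in T cells. Lrmp was at 87.2 CPM in T cells, above the other 9, and Krt19 was at 32.2 CPM in Epcam cells with fewer than 3 of the 8 genes.

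**Figure D4:**
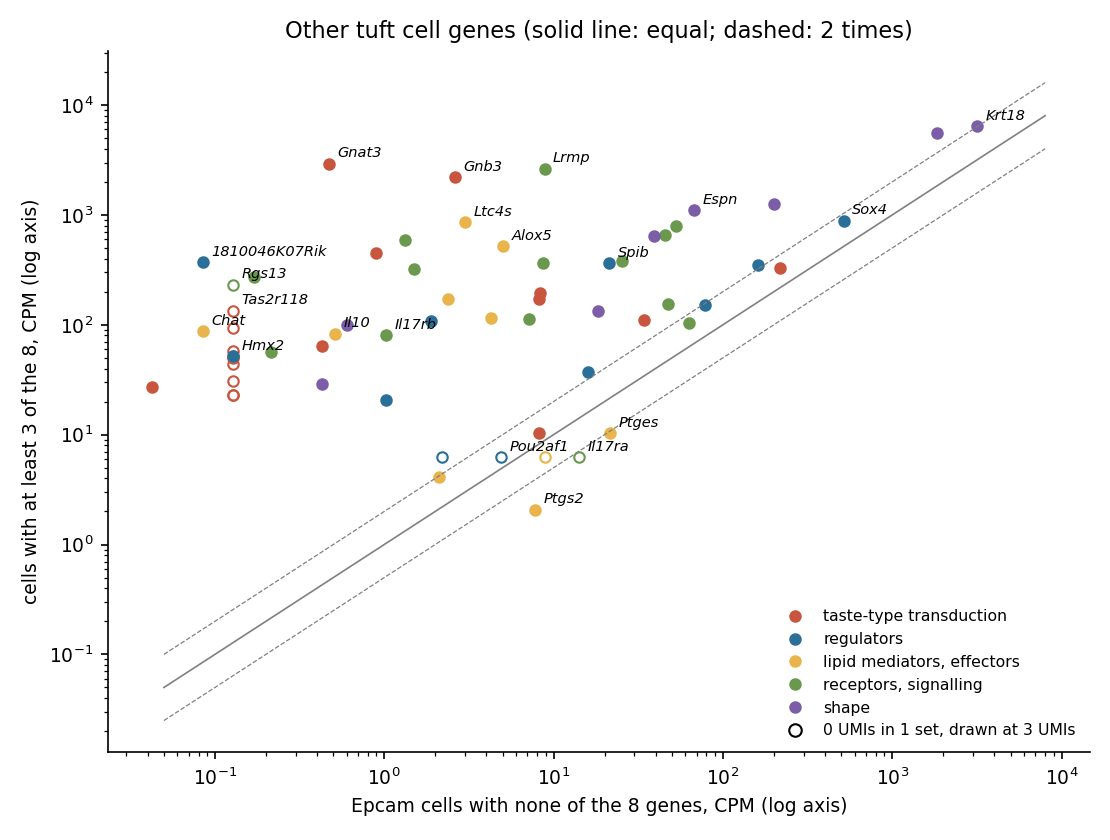
CPM (log axes) of the 63 listed genes with at least 10 UMIs over both sets, in Epcam cells with none of the 8 genes (horizontal) and in cells with at least 3 of them (vertical), colored by list, with open points where 1 set had 0 UMIs and is drawn at 3 UMIs. Gnat3 (2927 against 0.470) and 1810046K07Rik (371 against 0.0855) lie far above the line of equal values, and Ptgs2 (2.07 against 7.78) lies below it. 1810046K07Rik reached 10 UMIs only through the cells on the vertical axis and so could only lie above the line.

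The summed markers of most other cell types were lower in tuft-like cells than in the comparison cells. None held Cd3e or Pdgfra, and 1 held Ptprc. No T-cell receptor beta contig shared a barcode with any of the 31, which allows up to 9.68% of them, while 8.96% of the other Epcam cells and 75.8% of T cells had one. The summed immune markers stood at 97.4 CPM against 535 in Epcam cells with none of the 8 genes, cycling genes at 10.4 against 184 (median 0 in both) and the mesenchymal list at 10.4 against 16.3. Single members differed from their lists, as Tyrobp, Col1a1, Ccl21a and Foxj1 were at 0 while Pdgfrb was in 4 of 31 cells (8.29 against 0.599 CPM, ratio 13.9, 3.32 to 44.1). Of the others, Ccl20 (12.4 against 0.342) and Insm1 (45.6 against 23.8) were each in 1 cell and Foxi1 (16.6 against 8.81) in 2, and C1qa, lower by CPM, was in 9.68% of cells against 3.51%. Of the other epithelial lists, the cortical one was at 2504 against 8098 and the Aire one at 871 against 2970 CPM. Single cells stood out, since 757 of 875 UMIs of the cortical gene Ctsl were in 1 cell, the cortical list reached 40767 and the airway list 9509 CPM in 1 cell each. The muscle list was the only one higher, at 201 against 7.91, and all 97 of its UMIs were Myog, in 5 of the 31 cells with 73 in 1 of them. The part of other cell types in these values was not tested.

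Within the tuft-like cells Alox5ap fell into separate ranges, 9 to 60 UMIs in 10 cells and 0 to 2 UMIs in 21 cells. This split was made after the counts of single cells had been seen and is a description. The Alox5ap-high cells were 8 ORFTOC and 2 FTOC cells and the Alox5ap-low cells 14 and 7, with median depths of 13091 and 15985 UMIs. Of the 8 genes, Dclk1 and Sh2d6 went with Alox5ap. Dclk1 was in 9 of 10 high cells (median 9.5 UMIs, up to 27) and in 3 of 21 low cells (up to 2), and Sh2d6 in 9 of 10 (median 16, up to 23) and in 5 of 21 (up to 5). The 1 high cell without either was an FTOC cell with 9 Alox5ap, 3 Avil and 1 Gng13 UMIs.

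The other members overlapped between the 2 kinds of cell. Gng13 had medians of 96 and 80 UMIs, Trpm5 of 9 and 7 and Avil of 24 and 17, Il25 was in 5 of 10 and 6 of 21 cells, and Pou2f3 was at 100 against 162 CPM (ratio 0.616, 0.323 to 1.11). Of the other listed genes 55 could be compared, with 18 at least 2 times higher in the Alox5ap-high cells, 16 at least 2 times lower and 21 in between, where 11.5% and 14.6% of all genes tested were higher and lower. The lists differed. Of 14 signalling genes 9 were at least 2 times higher and none lower, among them Bmx (620 against 117 CPM), Rgs13 (460 against 129) and Inpp5d (227 against 60.2). Of 18 transduction genes 11 were at least 2 times lower and 2 higher. Tas1r1 and the Tas2r genes among the 18 had fewer than 10 UMIs in the high cells. They passed only through the low cells and could hardly come out higher.

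The lower genes were Gnat3 (1141 against 3733 CPM), Itpr3 (ratio 0.273, 0.120 to 0.548), Plcb2, Tas1r1 and 7 Tas2r genes. Summed over the family, Tas2r gave 18 UMIs of 8 receptors in 6 of 10 high cells (120 CPM, 71.2 to 190) and 269 UMIs of 21 receptors in 16 of 21 low cells (809, 715 to 912). Other genes that led the Alox5ap-high side, by the same ratio with 10 added and detection in at least 50% of cells, were Mgst3, Nrgn, Adgrg6 (48 against 5 UMIs) and Ctsl, which rested on the 1 cell with 757 UMIs, and Sez6, Lipc, Scn2a and Rgs21 led the low side (Lipc 6.67 against 226). In ORFTOC cells alone (8 high, 14 low) the same comparison gave 904 against 34.1 CPM for Sh2d6, 686 against 8.52 for Dclk1 and 145 against 976 for the summed Tas2r genes. The sex of the embryos was not even between the 2 kinds, with Xist and no Y-linked UMI in 0 of 8 high and 6 of 14 low ORFTOC cells, and its part in the difference was not tested.

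Outside the tuft-like cells the 8 genes were found in different cells. Dclk1 was detected in 439 of the other 2512 Epcam cells, 331 ORFTOC and 108 FTOC. The genes that led in these cells, chosen after their values were seen, were Bpifa1, Cldn4, Cyp2f2 and Sftpd, genes of secretory airway epithelium. Of the 347 other Epcam cells with at least 100 Bpifa1 UMIs, 260 (74.9%) held Dclk1, against 179 (8.27%) of the remaining 2165. Bpifa1 had been picked for its level in the Dclk1 cells themselves, so this difference was built in and is a description. Within the Bpifa1-rich cells the pools were closer, with Dclk1 in 77.5% of 285 ORFTOC and 62.9% of 62 FTOC cells, at 223 and 166 CPM. Mesenchymal genes were also higher in the 439 cells, with Pdgfra in 17 of them (11.7 CPM against 1.85 in the other Epcam cells without Dclk1) and Col1a1 in 22 (217 against 3.55), and their part in the Dclk1 level was not tested.

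Gng13 was found in 181 other Epcam cells, in 118 of them as 1 UMI, and at most as 15. These cells had more of 3 genes that were chosen after their values were seen, Rgs5 (665 against 197 CPM), Krt14 (595 against 256) and Spib (55.6 against 22.5), and they were 112 ORFTOC (8.03%, 6.66% to 9.59%) and 69 FTOC cells (6.17%, 4.83% to 7.75%). Pou2f3 was found in 44 other cells, in 39 of them as 1 UMI. It was in a larger share of the FTOC cells there, 30 cells (2.68%, 1.82% to 3.81%) against 14 ORFTOC cells (1.00%, 0.550% to 1.68%), and its cells had more of 3 genes that were likewise chosen after their values were seen, Nqo1, Cd44 and Mmp9 (411 against 175 CPM). Of the 21 other Epcam cells with Alox5ap, 18 held Ptprc and these carried 165 of 171 UMIs. Trpm5, Il25 and Sh2d6 were nearly absent outside the tuft-like cells, with 3, 4 and 4 cells of 1 UMI each.

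Between the pools, 7 of the 8 genes were at least 2 times higher in ORFTOC than in FTOC Epcam cells and none was 2 times lower. Among 16599 genes, 7.25% were at least 2 times higher and 7.81% at least 2 times lower. The median log2 ratio was 1.79 for the 8 genes and -0.01 for all. The 8 genes are not independent results here. From 87.1% to 98.8% of the UMIs of Trpm5, Avil, Gng13, Il25 and Sh2d6 lay in the same few tuft-like cells. Alox5ap had the highest ratio (4.33, 3.36 to 5.66), followed by Avil (interval 3.33 to 5.35), Sh2d6 (3.81, 2.43 to 6.24), Il25 (3.73, 1.41 to 12.5), Gng13 (3.19, 2.90 to 3.50), Trpm5 (2.64, 1.93 to 3.66) and Dclk1 (2.34, 2.09 to 2.63). Pou2f3 had a ratio of 1.11 (0.760 to 1.63). Neighbours in this order had overlapping intervals from Alox5ap to Trpm5 and for Trpm5 and Dclk1, so neighbours in it are not resolved, while the interval of Pou2f3 lay below that of every other gene but Il25. Single cells weighed on these values, since 1 FTOC cell held 41 of the 70 Alox5ap and 17 of the 23 Sh2d6 UMIs of its pool. Without the cell of each pool with the most UMIs of the gene, the log2 ratio went from 2.11 to 3.16 for Alox5ap and from 1.93 to 3.57 for Sh2d6. The number of tuft-like cells and the UMIs in each are given in turn.

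The share of tuft-like cells was 22 of 1416 ORFTOC Epcam cells (1.55%, 0.976% to 2.34%) and 9 of 1127 FTOC Epcam cells (0.799%, 0.366% to 1.51%), a ratio of 1.95 with an interval of 0.861 to 4.80 that includes equal shares. Of the 31 cells 71.0% (52.0% to 85.8%) were ORFTOC, against 55.7% of all Epcam cells. With each cell thinned to 5000 UMIs the shares were 1.47% (0.888% to 2.29%) and 0.610% (0.224% to 1.32%), after 125 ORFTOC and 143 FTOC cells had been left out as too shallow. Thinned to 2000 UMIs they were 1.45% (0.886% to 2.22%) and 0.464% (0.151% to 1.08%).

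Within the tuft-like cells the UMIs per cell also differed, with medians of 110 and 10 for Gng13, 21 and 5 for Avil and 9 and 6 for Trpm5 in ORFTOC and FTOC. The ratio of CPM was 1.82 for Gng13 (1.64 to 2.02), 2.01 for Avil (1.59 to 2.56), 1.31 for Trpm5 (0.956 to 1.83) and 1.14 for Pou2f3 (0.644 to 2.14). The 9 FTOC cells held 1, 1, 1, 7, 10, 19, 30, 138 and 220 Gng13 UMIs and the ORFTOC cells 3 to 263, so the ranges overlapped while 3 FTOC cells lay below every ORFTOC cell. Without the tuft-like cells, 3 genes were still at least 2 times higher in ORFTOC, namely Alox5ap (6.17, 3.77 to 10.7), Avil (5.44, 1.27 to 49.0, on 15 and 2 UMIs, or a log2 ratio of 1.86 with the 2 taken as 3) and Dclk1 (2.29, 2.04 to 2.58). Gng13 was then at 1.12 (0.888 to 1.42) and Pou2f3 at 0.476 (0.261 to 0.851), while Trpm5, Il25 and Sh2d6 gave no value. Of the 171 Alox5ap UMIs left in these cells, 165 were in 18 cells that also held Ptprc. The share of all genes at least 2 times higher in these cells was not computed.

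**Figure D5:**
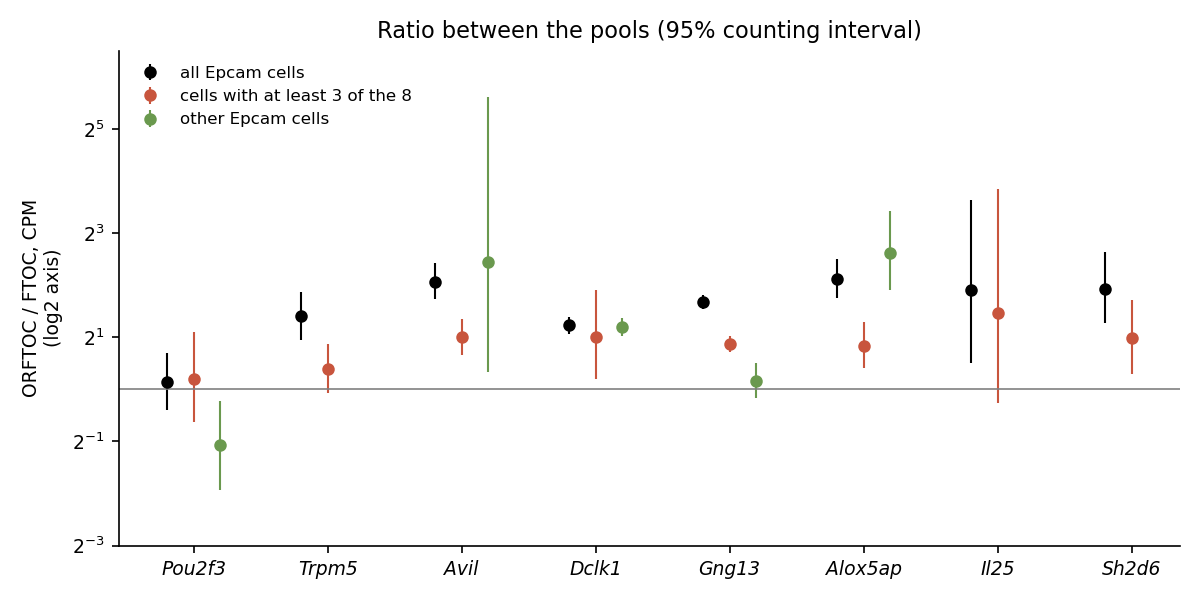
Ratio of CPM in ORFTOC over FTOC (log2 axis, line at equal levels) for each of the 8 genes in all Epcam cells, in those with at least 3 of the genes and in the others, with 95% counting intervals, and with no point where both pools had 3 UMIs or fewer. In all Epcam cells 7 genes lie above 2, and Gng13 falls from 3.19 to 1.12 once the cells with at least 3 genes are left out.

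Genes tied to the response to IL-25 were also compared, in all immune cells of the pools (2185 ORFTOC and 2287 FTOC cells). An Il17rb UMI was found in 127 and 35 of these cells, and the share of all genes higher in ORFTOC immune cells was not computed. Il17rb was at 10.4 (8.99 to 12.0) and 3.06 (2.18 to 4.19) CPM and the IL-33 receptor gene Il1rl1 at 8.20 (6.93 to 9.64) and 2.12 (1.40 to 3.08). Il13, a cytokine of type 2 innate lymphoid cells, was at 70.0 (66.2 to 74.0) in 133 ORFTOC cells and 10.8 (9.10 to 12.8) in 15 FTOC cells. Areg (24.4 against 8.87) and the transcription factor gene Gata3 (ratio 1.55, 1.41 to 1.72) were higher in ORFTOC as well, whereas Il17ra was lower (ratio 0.665, 0.594 to 0.745). Il5 gave 3 UMIs in ORFTOC and 11 in FTOC, all 11 in 1 cell. The sets differed in make-up, with T cells 1467 of the ORFTOC and 2011 of the FTOC immune cells. Among the 718 and 276 immune cells without Cd3e, a comparison added after seeing the data, the ratio of ORFTOC to FTOC was 3.26 (1.72 to 6.96) for Il17rb, 2.29 (1.86 to 2.84) for Il13 and 3.17 (2.21 to 4.69) for Areg. It was 1.38 (0.853 to 2.35) for Il1rl1, an interval that includes equal levels, and 1.28 (1.05 to 1.57) for Gata3. Il17ra was lower (0.546, 0.407 to 0.738), and Il5 again had 3 and 11 UMIs. Few FTOC cells without Cd3e held these genes, with Il17rb in 9, Il13 in 10 and Areg in 7. Each value rests on 1 pool, and immune cells were shallower in FTOC (median 3194 against 5983 UMIs).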

How the data were processed

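The deposited matrix held raw UMI counts per gene and hashtag for 705161 barcodes, made by the authors with Cell Ranger (6.1.2 per the labels) on mm10, with T-cell receptor contigs beside it. Following the study's methods, 10245 barcodes with at least 600 genes and 0.4 to 10% mitochondrial UMIs were kept, and HTODemux of Seurat 5.3.0 (quantile 0.99) called 8983 singlets, 590 doublets and 672 negatives. Within-pool doublets (591 cells) were removed by their share of called doublets among 50 neighbours on 50 principal components. Levels are summed counts in CPM. Shares have Clopper-Pearson intervals, counts exact Poisson and ratios conditional binomial ones (scipy 1.17.1). For ratios a count of 0 was set to 3, and a count under 3 likewise between the pools in all Epcam cells and in the alternatives. The ratio step was tested on simulated data. The 8 genes and all lists were chosen with earlier results of these data known. Named were the 8 genes, of each list the largest and smallest ratio and genes a sentence turns on, and the 10 most like genes, found in at least 20% of tuft-like cells. Others were chosen after their values were seen. Alternatives covered the Epcam, gene, hashtag and doublet limits, free RNA, thinning, the number of genes per cell and single pools.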

Additional observations from a re-analysis of the deposited data

How the results depend on the processing

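The results were recomputed under 6 alternatives common to all, and further ones for each. With at least 2 of the 8 genes in place of 3, the number of cells went from 31 to 108 and the shares from 1.55% to 5.72% in ORFTOC and from 0.799% to 2.40% in FTOC, most of the added cells holding Dclk1 and Gng13. Without the tuft-like cells, 3 in place of 7 genes were at least 2 times higher in ORFTOC, with no share of all genes computed beside this count. Trpm5, Il25 and Sh2d6 gave no value there because both pools then held 3 UMIs or fewer. The ORFTOC share of tuft-like cells stayed between 65.1% and 80.0%, the number of co-detected pairs between 24 and 27 and the number of listed genes at least 2 times higher between 35 and 51, where 51 of 63 counts genes with at least 10 UMIs over both sets (16.6% of all genes higher and 13.6% lower), 40 the FTOC cells only and 35 of 47 those with 10 UMIs in the comparison cells. The FTOC share of tuft-like cells ranged, apart from the value above, from 0.464% (thinned to 2000 UMIs) to 1.33% (at least 2 of the 6 genes other than Alox5ap and Dclk1). Leaving out the top cell of each pool moved the log2 pool ratio of Gng13 from 1.67 to 2.24, and leaving out Epcam cells with Ptprc or Pdgfra moved that of Alox5ap from 2.11 to 1.72. Of 169 values for single genes under the alternatives, 134 lay inside the counting interval of the reported value, 35 outside it, and none of those at least 2-fold as reported turned direction. Pou2f3, reported with a log2 pool ratio of 0.15, went to -1.07 without the tuft-like cells and to -0.0054 with every cell weighted equally. Including cells without a hashtag call, an alternative chosen after seeing the data, added 7 tuft-like cells. A further 4 tuft-like cells were among the hashtag doublets and 2 among the within-pool doublets, and were left out. No paired analysis was possible because each pool is 1 sample. With 31 tuft-like cells, 9 of them FTOC, shares that differ by less than the intervals given could not be resolved.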
